A study of Mus musculus with 16 samples.

Results

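The extracellular matrix and collagen genes are a fixed list of 44 genes, matched by Ensembl identifier among the 54838 identifiers of each count table. All 44 were found, and all 44 passed the filter on low counts that left 21284 genes for testing. They fall into 7 classes: fibrillar collagens (6 genes), basement membrane (9), other collagens (9), hyaluronan matrix (4), small leucine-rich proteoglycans (3), elastic fibre (8), and adhesive and matricellular glycoproteins (5).

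The study sequenced poly-A selected RNA from parts of mouse embryos at E10.5, untreated, to compare genotypes by region. Head is the embryo above the third branchial arches and Tail the part below the forelimbs. In each region there were 4 groups with n = 2 libraries each: WT (wild type), the single mutants Fuz KO and Gpr161 KO, and the double mutant Fuz;Gpr161 DKO (here DKO). Fuz encodes a planar cell polarity effector needed to build cilia, and Gpr161 a receptor of the primary cilium that restrains Hedgehog signalling. The labels name no strain and no allele. Whether separate embryos gave the libraries of a group, or the Head and Tail libraries of a genotype, is also not given there. By their sex-linked counts, the 2 libraries of each Gpr161 KO group differed in sex, so these did not come from 1 embryo. For each gene, all p-values rest on 1 spread taken over the 8 groups together, those of the Gpr161 KO included. In the other groups the scatter that enters it may be technical.

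The extracellular matrix is the meshwork that cells secrete around themselves. Fibrillar collagens give it tensile strength, and basement membranes of laminin, collagen IV, nidogen and perlecan underlie epithelia and vessels. Hyaluronan bound by versican and link proteins swells the loose embryonic mesenchyme through which cells migrate, elastic fibres add recoil, and matricellular proteins such as tenascin-C modulate adhesion. In the embryo this matrix shapes the heart cushions, the craniofacial and limb mesenchyme and the sheath of the neural tube and notochord.

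Promoter windows from 250 bases before to 50 bases after a start were matched by symbol for 28 members, giving 35 windows (RefSeq, GRCm38.p6). The 100 bases before the start are shown for 5 genes that rose in the Gpr161 KO Head, because they let the starts of genes that moved together be read side by side. Each is written 5′ to 3′ on the gene's strand, and capitals mark matches to the GC box GGGCGG on either strand. The windows are chr4:137468703-137468802 on the plus strand for Hspg2, chr10:77166531-77166630 on the minus strand for Col18a1, chrX:73483501-73483600 on the plus strand for Bgn, chr11:55420081-55420180 on the minus strand for Sparc and chr7:79131019-79131118 on the minus strand for Hapln3.
Hspg2: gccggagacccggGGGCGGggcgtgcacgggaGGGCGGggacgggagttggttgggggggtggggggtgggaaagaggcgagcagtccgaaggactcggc
Col18a1: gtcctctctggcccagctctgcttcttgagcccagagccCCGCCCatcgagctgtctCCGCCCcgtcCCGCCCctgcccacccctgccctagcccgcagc
Bgn: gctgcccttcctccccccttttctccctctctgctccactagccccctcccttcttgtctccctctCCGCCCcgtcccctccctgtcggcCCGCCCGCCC
Sparc: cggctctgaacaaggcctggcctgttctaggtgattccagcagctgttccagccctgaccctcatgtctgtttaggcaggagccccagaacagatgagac
Hapln3: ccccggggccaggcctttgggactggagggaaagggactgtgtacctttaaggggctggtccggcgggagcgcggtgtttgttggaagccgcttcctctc
The stretches of Hspg2, Col18a1 and Bgn hold the GC box and those of Sparc and Hapln3 do not. Col18a1 has a second start, and the 100 bases before it, chr10:77113706-77113805 on the minus strand, hold none of the motifs searched. Tnc, which also rose, has 2 such stretches, and neither holds one. Over the full windows, GGGCGG on either strand stood in 21 of the 35 member windows (60%), from 19 genes, against 35.7% of 32851 windows of the same length. CCAAT stood in 34.3% of member windows against 37.4% of all, TATAAA in 14.3% against 13.6%, and ACGTG, the core bound by hypoxia-inducible factors, in 11.4% against 19.6%. The GLI motif GACCACCCA was in none of the 35 member windows and in 0.253% of all. These are matches of letters and not sites, and some letters of one motif can overlap another.

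Col4a1 and Col4a2 start head to head, with a 22-base overlap at chr8:11312805-11312826 (RefSeq, GRCm38.p6). The strand setting of the counting is not given in the sources used here, so reads from those bases cannot be assigned to either gene. In all, 5 pairs of members are neighbours: Col4a1 with Col4a2, Col3a1 with Col5a2, Col6a1 with Col6a2, Dcn with Lum, and Hapln1 with Vcan.

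Total counts ran from 39062489 to 53680317 per library, and single members from 14 to 53995 counts. Levels are given as CPM, which puts the counts of all libraries on a common total. The targeted genes followed the labels: Fuz was at 0.808 to 1.89 CPM in the 8 libraries labelled Fuz KO or DKO and 4.95 to 9.22 CPM in the other 8, and Gpr161 at 2.12 to 5.44 CPM in the 8 libraries labelled Gpr161 KO or DKO against 24.3 to 55.0 CPM elsewhere. Where the deleted part lies is not given, so residual reads of either gene check only the direction. Summed markers of tail tissue were 29.8 to 50.6 CPM in Head and 612 to 937 CPM in Tail libraries, and those of head tissue 212 to 445 CPM in Head and 77.7 to 187 CPM in Tail libraries. By Xist and Y-linked counts the WT libraries were female, the Fuz KO and DKO libraries male, and the Gpr161 KO groups 1 male and 1 female library each, so genotype and sex cannot be told apart for Fuz KO and DKO against WT. The first Fuz KO and DKO library of both regions stood apart: 25 genes of hypoxia and glycolysis were higher than in the WT of the region by a median log2 of 2.66 in Head Fuz KO 1, 2.09 in Head DKO 1, 2.06 in Tail Fuz KO 1 and 1.64 in Tail DKO 1, against 0.12 to 0.56 in the second libraries of those groups.

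Per kilobase of exon, the most abundant members in Head WT were Col3a1 at 68.3 CPM per kb, Sparc at 62.2, Col4a1 at 61.0, Col18a1 at 50.8 and Col4a2 at 45.0. Tail WT began with Col3a1 at 71.6 CPM per kb, Sparc at 70.5 and Col18a1 at 60.4, followed by Col4a1 at 57.9 and Fn1 at 45.6. A fibrillar collagen, a collagen-binding glycoprotein and the collagens of the basement membrane thus headed the list in both regions. At the other end of the Head WT order stood Col8a1 at 0.201, Col14a1 at 0.267 and Dcn at 0.365 CPM per kb. Col6a3, a chain of the collagen VI beaded filaments, and Eln, the elastin gene, were also low, at 1.07 and 0.729 CPM per kb in Head WT.

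Between the regions of WT embryos, 6 of 44 members were higher in Head, where 2.02% of all genes tested were, and 5 were lower, where 1.74% were. Col12a1, a collagen of the fibril surface, measured 44.7 and 36.0 CPM in Head WT and 10.7 and 12.7 CPM in Tail WT. Its log2 difference, Head minus Tail, was 1.78 ± 0.33 (SE, adjusted p = 0.0094). Lox, the lysyl oxidase that crosslinks collagen and elastin, was at 11.6 and 16.1 CPM against 1.68 and 1.51 CPM, a difference of 3.12 ± 0.63 (adjusted p = 0.017). The others higher in Head were Col11a1, a minor chain of cartilage fibrils (0.76 ± 0.16), Col9a1 and Col9a2, which sit on those fibrils (0.79 ± 0.20 and 1.21 ± 0.26), and Thbs1, the matricellular thrombospondin-1 (0.88 ± 0.18).

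The members lower in Head WT than in Tail WT were led by Col14a1, a fibril-surface collagen of soft connective tissue, at 1.32 and 2.42 CPM against 34.9 and 22.0 CPM. Its log2 difference was -3.93 ± 0.60 (adjusted p = 0.00319). Postn, the periostin gene, was at 24 and 16.8 CPM in Head and 142 and 138 CPM in Tail (-2.77 ± 0.53), and Tnc, the tenascin-C gene, at 7.27 and 6.01 CPM against 36.8 and 33.6 CPM (-2.41 ± 0.53). Dcn, the decorin gene, differed by -2.48 ± 0.47 and Fbn2, fibrillin-2 of the microfibrils, by -0.45 ± 0.11. The Head and Tail WT libraries did not overlap for any of these 11 genes. Since these genes were picked by a test on the same libraries, this adds no support. No basement membrane member and no hyaluronan matrix member passed the test: their leading genes were Lamb1, the laminin beta 1 chain, at -0.72 ± 0.25, and Hapln3, a link protein, at -0.66 ± 0.26, and among the fibrillar collagens Col1a1 was at -0.88 ± 0.53 without passing. The median log2 difference over the 44 members was -0.03, and over all genes -0.02. The count of 11 depended on each WT library: with Head WT 1 left out it was 0, with Head WT 2 left out 3, and with Tail WT 1 or Tail WT 2 left out 2 or 3, in fits that called 1.34%, 1.51%, 1.49% and 2.8% of all genes. With Head and Tail libraries of the same genotype and number taken as pairs, an alternative chosen after seeing the data, 20 members were called, 10 higher and 10 lower in Head, where 9.43% of all genes were. These held 10 of the 11, without Tnc (adjusted p = 0.111). A sex term lost Col9a1, and RLE scaling lost Fbn2. The chondrogenic and sclerotome markers summed to 660 and 659 CPM in Head WT and 364 and 439 CPM in Tail WT, and the 9 neuron markers to 864 and 915 CPM against 150 and 507 CPM. The part of these cells in the regional differences was not tested.

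**Figure D1:**
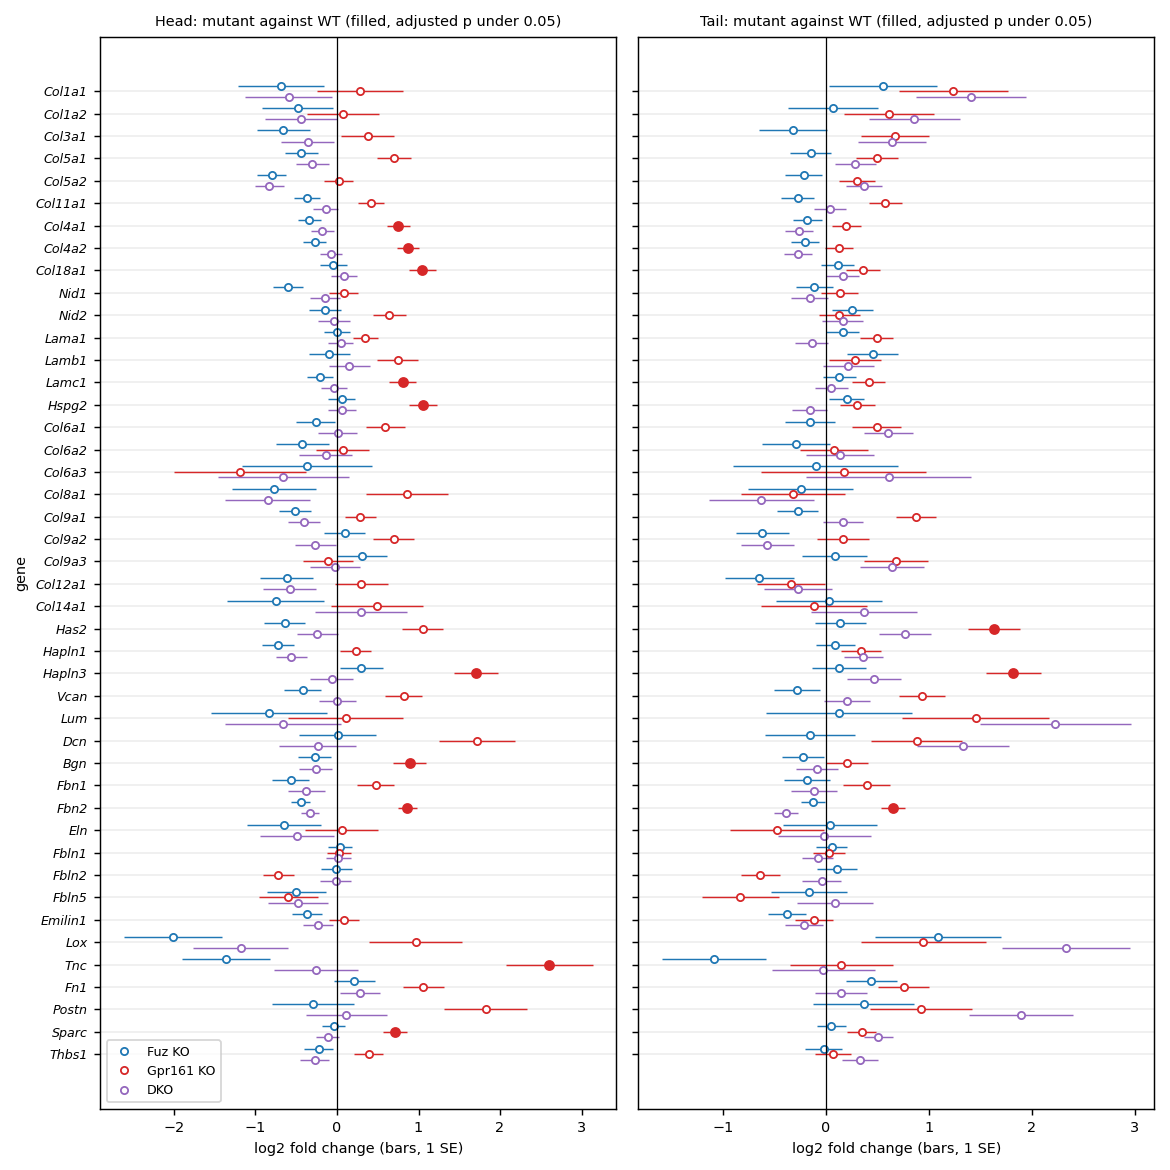
Log2 fold change of the 44 members (rows) in each mutant against the WT of its region, Head on the left and Tail on the right; horizontal bars are 1 SE from the edgeR fit, and filled points have an adjusted p under 0.05. The filled points are 10 genes of the Head Gpr161 KO and 3 of the Tail Gpr161 KO, all to the right of 0.

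In the Head, loss of Gpr161 went with higher levels of basement membrane genes, of link protein and of several glycoproteins. Of the 44 members, 10 rose against Head WT and 0 fell, where 1.51% of all genes tested rose. The median log2 change over the 44 was 0.54 (0.01 over all genes), and 40 of 44 were positive. The Gpr161 KO libraries lay wholly above the WT libraries for 30 members and wholly below for 3, which happened for 28.4% and 25.1% of all genes. In these bulk samples, more cells of a type and more RNA per cell cannot be told apart.

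Of the 9 basement membrane members 5 rose, and the median log2 change of the class was 0.75. Col4a1, the alpha 1 chain of collagen IV, measured 467 and 443 CPM in Head WT, 331 and 390 CPM in Fuz KO, 769 and 765 CPM in Gpr161 KO and 415 and 389 CPM in DKO. Its partner chain Col4a2 was at 302 and 294, 230 and 264, 530 and 560, and 297 and 269 CPM in the same order. Both Gpr161 KO libraries stood above the other 6 Head libraries for each chain, and against WT they rose by 0.75 ± 0.14 (adjusted p = 0.0143) and 0.87 ± 0.14 (adjusted p = 0.00634) on the log2 scale. Col18a1, a heparan sulfate collagen that can be cut to endostatin, was at 352 and 361 CPM in WT, 400 and 292 CPM in Fuz KO, 723 and 748 CPM in Gpr161 KO and 408 and 349 CPM in DKO. The Gpr161 KO pair was again apart from the rest, 2.06-fold above WT (log2 1.04 ± 0.16, adjusted p = 0.00633). Hspg2, which encodes perlecan, was at 178 and 190 CPM in WT and 406 and 358 CPM in Gpr161 KO, with the other 4 mutant libraries at 164 to 218 CPM. It rose 2.08-fold (log2 1.06 ± 0.17, adjusted p = 0.007). Lamc1, the gamma 1 chain shared by many laminins, was at 158 and 148 CPM in WT and 274 and 261 CPM in Gpr161 KO and rose by 0.80 ± 0.16 (adjusted p = 0.0231). These 5 genes were picked by a test on the same libraries, so their separation from WT adds no support.

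The remaining basement membrane genes were also positive without passing the test. Lamb1 measured 138 and 120 CPM in Head WT and 224 and 209 CPM in Gpr161 KO (0.75 ± 0.25), and Nid2, one of the nidogens that tie laminin to collagen IV, at 84.2 and 67.6 CPM against 135 and 102 CPM (0.64 ± 0.20). Lama1, the laminin alpha 1 chain, was at 100 and 92.5 CPM against 118 and 128 CPM. Nid1 was nearly level, at 152 and 145 CPM against 156 and 158 CPM (0.08 ± 0.18). In this class the collagen, perlecan and laminin gamma 1 genes thus passed the test, and Lamb1, Lama1 and both nidogens fell short of it. Lamb1 changed about as much as Col4a1 but with a larger SE. Differences between members were not tested.

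Outside the basement membrane the members that rose came from 4 further classes. Hapln3, a link protein that holds proteoglycans on hyaluronan, measured 3.01 and 3.24 CPM in Head WT, 4.60 and 3.09 CPM in Fuz KO, 10.1 and 10.2 CPM in Gpr161 KO and 3.60 and 2.37 CPM in DKO. It rose 3.26-fold (log2 1.70 ± 0.27, adjusted p = 0.00633). Fbn2 was at 276 and 257 CPM in WT, 197 and 195 CPM in Fuz KO, 447 and 524 CPM in Gpr161 KO and 204 and 221 CPM in DKO. It rose by 0.86 ± 0.12 (adjusted p = 0.0025), the smallest adjusted p of the 44. Tnc rose most, 6.08-fold (log2 2.60 ± 0.53, adjusted p = 0.0337), from 7.27 and 6.01 CPM in WT to 34.8 and 45.9 CPM, a level like the 36.7 and 41.6 CPM of the Tail Gpr161 KO. Sparc, a collagen-binding matricellular protein, was at 239 and 233 CPM in WT and 362 and 409 CPM in Gpr161 KO (0.71 ± 0.14, adjusted p = 0.0238), and Bgn, the biglycan gene, at 38.4 and 36.5 CPM against 60.9 and 78.0 CPM (0.89 ± 0.20, adjusted p = 0.0418). For each of these 5 genes both Gpr161 KO libraries lay above every other Head library. They were picked by a test on the same libraries against WT, so the separation from WT adds no support.

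The fibrillar collagens and the other collagens had no member past the test. Col5a1, which sets the diameter of collagen I fibrils, led its class with 111 and 107 CPM in Head WT and 157 and 196 CPM in Gpr161 KO (0.70 ± 0.20, adjusted p = 0.116). Col6a3 led the other collagens with a lower value, at 13.9 and 11.6 CPM against 4.29 and 6.89 CPM (-1.19 ± 0.81). The groups did not overlap for Col6a3, yet Head Fuz KO alone spanned 2.86 to 16.8 CPM. Dcn was at 2.27 and 1.99 CPM in WT and 4.09 and 9.87 CPM in Gpr161 KO (1.71 ± 0.47, adjusted p = 0.0929), and Lox at 11.6 and 16.1 CPM against 23.3 and 30.7 CPM (0.96 ± 0.57). Chosen after their values were seen, Has2, which makes hyaluronan, and Fn1, the fibronectin gene, fell just short at adjusted p = 0.0549 and 0.0539. Fbln2, a fibulin of elastic and basement membrane matrix, pointed the other way at 52.0 and 46.3 CPM against 29.3 and 30.4 CPM (-0.72 ± 0.19, adjusted p = 0.0833).

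The 10 calls leaned on every library of the comparison. Without Head WT 1 there was 1 call and without Head WT 2 there were 0, and leaving out Gpr161 KO 1 or Gpr161 KO 2 gave 3 or 5, where 0.182%, 0.229%, 0.478% and 0.821% of all genes were called. The log2 changes themselves kept their sign in all alternatives, for example 0.99 to 1.05 for Col18a1 and 0.72 to 0.96 for Fbn2. Leaving out the Fuz KO 1 and DKO 1 libraries of both regions gave 19 calls, where 9.86% of all genes were called. A sex term gave 6, and Col4a1, Lamc1, Sparc and Tnc were not among them. With each region fitted alone Sparc and Tnc were not called either, and with RLE scaling Bgn was not.

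Markers of other cell types also differed in the Head Gpr161 KO group, some higher and some lower than in Head WT. The 20 cardiomyocyte markers summed to 2790 and 589 CPM in its libraries, with 0 of 20 at 0 counts, against 12.5 and 14.7 CPM in Head WT, with 4 of 20 at 0 counts in each. Myh6, a heart myosin, was at 326 and 55.9 CPM against 0.471 and 0.329 CPM. The 15 endothelial markers summed to 776 and 670 CPM against 453 and 431 CPM, the 12 chondrogenic and sclerotome markers to 1024 and 1165 CPM against 660 and 659 CPM, and the 7 notochord markers to 512 and 507 CPM against 214 and 208 CPM. The cardiomyocyte sum was 4.74-fold higher in Gpr161 KO 1 than in Gpr161 KO 2. The basement membrane members summed to 3334 and 3287 CPM in these libraries. The mesenchyme markers had a lower sum, at 541 and 606 CPM against 705 and 652 CPM in Head WT. Their median log2 difference from Head WT was -0.24 and 0.20. Neural progenitor markers were at 955 and 1153 CPM against 1234 and 1264 CPM, and neuron markers at 551 and 814 CPM against 864 and 915 CPM. The head tissue markers summed to 212 to 266 CPM in the group and 430 to 445 CPM in Head WT. The hypoxia and glycolysis genes were above WT by a median of 1.26 and 0.63. The part of these cells and genes in the rise of the matrix genes was not tested.

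**Figure D2:**
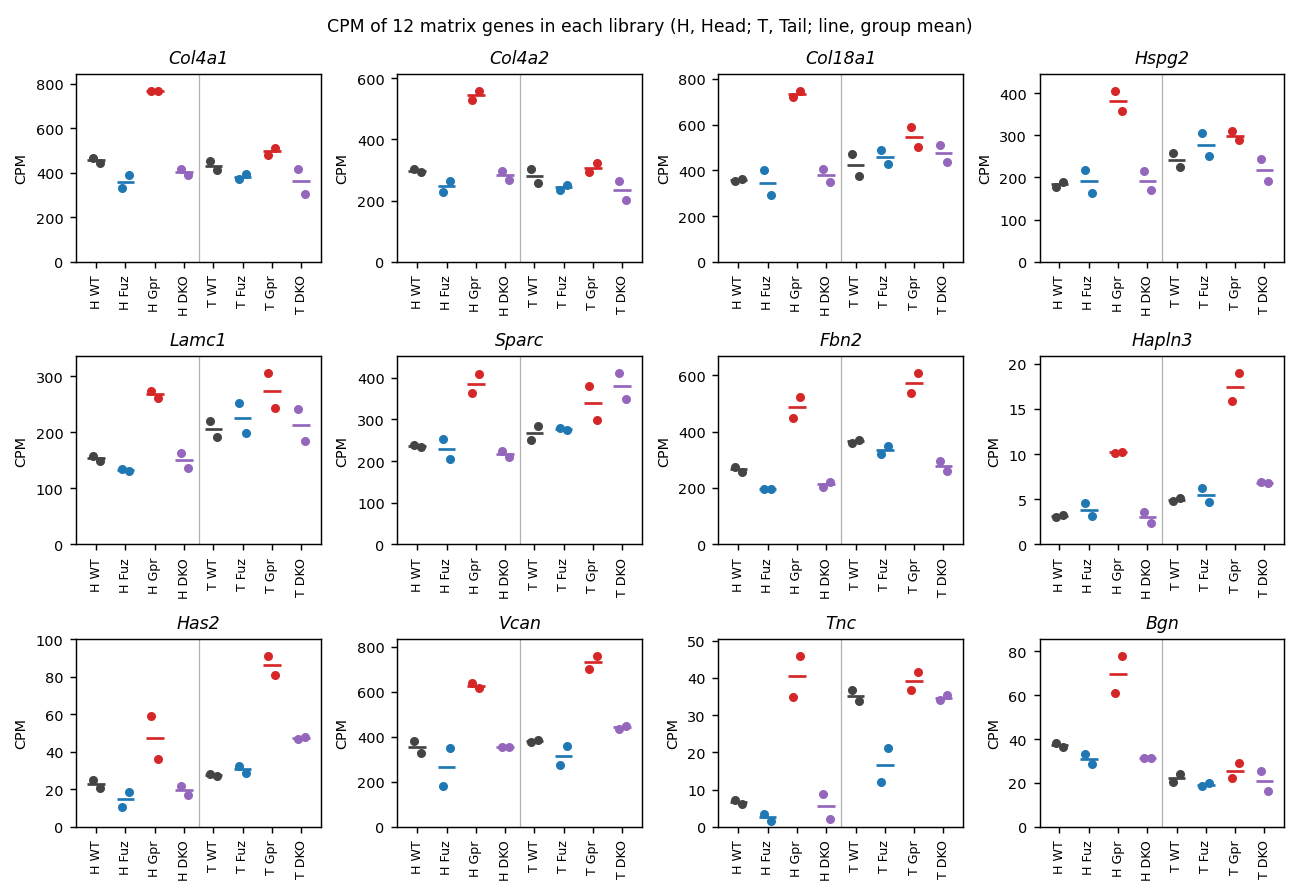
CPM of 12 matrix genes in each of the 16 libraries, with Head groups to the left of the grey line and Tail groups to the right; points are libraries, horizontal lines group means, and every axis starts at 0. In Head, the 2 red Gpr161 KO points lie above the other 6 points in all 12 panels, while in Tail they do so for Col4a1, Fbn2, Hapln3, Has2 and Vcan. All genes shown but Has2 and Vcan were called in Head Gpr161 KO against Head WT, so their separation from Head WT adds no support.

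The genes that act on this matrix were read from 4 lists with 183 genes. In the Head Gpr161 KO, 20 rose and 1 fell, where 1.51% of all genes rose. Among the 37 matrix proteases and inhibitors 4 rose: Adamts12 (1.94 ± 0.18), Adam12 (1.00 ± 0.13), Adamts1 (1.06 ± 0.17) and Adamts16 (3.71 ± 0.68). Adamts12, a secreted metalloprotease, measured 13.5 and 12.0 CPM in Head WT and 48.9 and 49.2 CPM in Gpr161 KO. Adamts1, which can cut versican, was at 31.4 and 27.4 CPM against 62.5 and 60.4 CPM. Of 31 collagen processing enzymes 3 rose: P4ha3, a prolyl 4-hydroxylase subunit (2.38 ± 0.35), Tgm2, a transglutaminase (1.49 ± 0.31), and P3h1, a prolyl 3-hydroxylase (0.59 ± 0.13).

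Of the 30 matrix receptors, Cspg4 (1.71 ± 0.39) and Dag1, the dystroglycan gene that anchors cells to laminin (0.67 ± 0.15), rose. Dag1 measured 188 and 173 CPM in Head WT and 312 and 259 CPM in Gpr161 KO. Of the further matrix components 83 of 85 could be tested and 11 rose, led by Fras1, a basement membrane protein of the skin (1.35 ± 0.14), Col22a1 (1.46 ± 0.18), Gpc3, a glypican (0.76 ± 0.12), and Spp1, the osteopontin gene (2.34 ± 0.42). The gene that fell, named after its value was seen, was Smoc1, which binds growth factors in basement membranes, at 45.0 and 54.7 CPM against 26.6 and 16.1 CPM. The median log2 changes of the 4 lists were 0.37 to 0.46. In the other 5 comparisons of a mutant with WT, edgeR called 0 genes of these lists. At an unadjusted p under 0.05 there were 18 in Head Fuz KO, 14 in Head DKO, 14 in Tail Fuz KO, 26 in Tail Gpr161 KO and 29 in Tail DKO, of 181 tested. These are 9.94%, 7.73%, 7.73%, 14.4% and 16% of the lists, where 8.17%, 4.33%, 5.21%, 6.98% and 7.19% of all genes had such a p. DESeq2 was not run on the lists.

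Where no gene of a list passed, the one with the largest change is given. P4ha1, a prolyl 4-hydroxylase subunit, was the largest among the processing enzymes in Head Fuz KO (1.84 ± 0.95), at 70.5 and 67.3 CPM in Head WT against 417 CPM in Fuz KO 1 and 76.3 CPM in Fuz KO 2. P4ha2, a second such subunit, took that place in Tail Fuz KO (1.93 ± 1.10) and Tail DKO (1.91 ± 1.10). Its Tail levels were 32.2 and 29.2 CPM in WT, 194 and 40.2 CPM in Fuz KO and 173 and 57.1 CPM in DKO, so the library with the raised hypoxia genes was the high one each time. Loxl4, a lysyl oxidase relative, was largest in Head DKO (-2.04 ± 0.82) and P3h2 in Tail Gpr161 KO (1.34 ± 0.43). Among receptors the largest were Lyve1, a hyaluronan receptor, in Head Fuz KO (-1.29 ± 0.85), Head DKO (-1.90 ± 0.88) and Tail Fuz KO (-1.18 ± 0.83), Itgb6 in Tail Gpr161 KO (-2.0 ± 0.76) and Itga2b in Tail DKO (0.92 ± 0.29).

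Adamts5, a protease that can cut proteoglycans, was the largest of the proteases and inhibitors in Head Fuz KO (-1.08 ± 0.37), at 4.73 and 4.79 CPM in Head WT against 1.95 and 2.54 CPM. In the same list stood Timp4 in Tail Gpr161 KO (2.39 ± 0.64) and Adamts16 in Tail DKO (-1.68 ± 0.62), and Mmp24 in Tail Fuz KO, with 0.0957 and 1.33 CPM in WT against 0.103 and 0.444 CPM. The largest of the further matrix components were Epyc in Head Fuz KO and Head DKO, Prelp in Tail Fuz KO and Tail DKO, and Ogn in Tail Gpr161 KO. These 3 were at 0 to 1.35 CPM in the Tail libraries, and no fold is given for them. The level of Epyc in Head, where it led, is not given here.

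In the Tail, the Gpr161 KO was higher in hyaluronan matrix genes and in fibrillin-2. Of the 44 members 3 rose and 0 fell, where 0.0799% of all genes tested rose, and the median log2 change was 0.35 (0.00 over all genes). Hapln3 was at 4.74 and 5.15 CPM in Tail WT, 6.19 and 4.64 CPM in Fuz KO, 15.9 and 19.0 CPM in Gpr161 KO and 6.86 and 6.79 CPM in DKO. It rose 3.53-fold (log2 1.82 ± 0.27, adjusted p = 0.0138). Has2 was at 28.3 and 27.2 CPM in WT, 32.4 and 28.8 CPM in Fuz KO, 91.2 and 81.1 CPM in Gpr161 KO and 46.6 and 47.8 CPM in DKO. The Gpr161 KO pair stood highest and the DKO pair next, and Has2 rose 3.10-fold in Gpr161 KO (log2 1.63 ± 0.26, adjusted p = 0.0194). Fbn2 was at 359 and 370 CPM in WT and 538 and 607 CPM in Gpr161 KO and rose by 0.65 ± 0.11 (adjusted p = 0.0312).

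The hyaluronan class as a whole had a median of 1.28 in the Tail Gpr161 KO, with Vcan, the large proteoglycan that binds hyaluronan, at 378 and 386 CPM in WT and 700 and 760 CPM in Gpr161 KO but not past the test (0.93 ± 0.23, adjusted p = 0.154). Hapln1, its neighbour in the genome, was at 158 and 129 CPM against 186 and 178 CPM. In the other classes the leading genes were Col9a1 (0.87 ± 0.20), Col1a1 (1.24 ± 0.53), Postn (0.93 ± 0.50), Lama1 (0.49 ± 0.16), Lox (0.95 ± 0.61) and Lum, the lumican gene (1.45 ± 0.72), and none passed. For Col1a1, Postn and Lum the pair of libraries was wide apart: Tail Gpr161 KO 1 was at 792, 379 and 115 CPM and Gpr161 KO 2 at 253, 151 and 32.6 CPM. The groups were wholly apart for 25 members that were higher in Gpr161 KO and 3 that were lower, against 22.6% and 22% of all genes. The 3 calls were lost, to 0, when either library of either group was left out, and 9 members passed without the Fuz KO 1 and DKO 1 libraries, where 1.55% of all genes did. A sex term lost Has2, and fitting the Tail alone lost Fbn2. Notochord markers summed to 711 and 404 CPM in the Tail Gpr161 KO and 257 and 242 CPM in Tail WT, chondrogenic and sclerotome markers to 525 and 587 CPM against 364 and 439 CPM, and endothelial markers to 706 and 759 CPM against 616 and 610 CPM. The hypoxia and glycolysis genes were above Tail WT by a median log2 of 1.03 and 0.33. Cardiomyocyte markers summed to 53.8 and 46.8 CPM in this group and to 94.3 and 189 CPM in Tail WT. The part of these cells and genes in the higher matrix levels was not tested.

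The Gpr161 effect was then compared between regions by the difference of differences. No member passed this test, with 0.094% of all genes called by edgeR, and DESeq2 called 1, Tnc. At an unadjusted edgeR p under 0.05 there were 6 members, where 5.26% of all genes had such a p. Tail minus Head, Tnc differed by -2.45 ± 0.72 (adjusted p = 0.433) and Hspg2 by -0.75 ± 0.24 (adjusted p = 0.494). Tnc was already at 36.8 and 33.6 CPM in Tail WT and at 36.7 and 41.6 CPM in Tail Gpr161 KO. Leading values of the other classes were 1.36 ± 1.14 for Col6a3, 0.96 ± 0.74 for Col1a1, -0.53 ± 0.64 for Eln, 1.34 ± 1.00 for Lum and 0.58 ± 0.36 for Has2. Without the Fuz KO 1 and DKO 1 libraries 4 members passed, Tnc, Hspg2, Col4a1 and Col4a2, all with the smaller effect in Tail, where 0.634% of all genes passed. With Head and Tail libraries paired within a genotype 3 passed, Hspg2 (-0.75 ± 0.12), Col4a2 (-0.74 ± 0.12) and Col18a1 (-0.68 ± 0.14), where 1.02% of all genes did. In the filtered fit of all 16 libraries without the pairing, edgeR called no member, which does not show that the regions responded alike. With no filter on low counts 6 members passed, where 1.04% of all genes did. The basement membrane median was 0.75 in Head and 0.28 in Tail.

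In the Fuz KO Head, many matrix genes were lower but none passed the test. By edgeR 0 of 44 members were called, where 0.047% of all genes tested were, and DESeq2 called 1, Col5a2. At an unadjusted edgeR p under 0.05 there were 11 members, where 8.17% of all genes had such a p. The median log2 change was -0.37 (0.01 over all genes) and 37 of 44 were negative. Both Fuz KO libraries lay below both WT libraries for 23 members and above for 0, where 17.9% and 18.6% of all genes did so. Col5a2, a chain that joins collagen I fibrils, measured 153 and 165 CPM in Head WT and 83.2 and 99.5 CPM in Fuz KO (-0.80 ± 0.18, adjusted p = 0.579). Lox was at 11.6 and 16.1 CPM against 4.05 and 2.81 CPM (-2.01 ± 0.60, adjusted p = 0.6), and Tnc at 7.27 and 6.01 CPM against 3.56 and 1.64 CPM (-1.36 ± 0.54). The remaining class leaders were Hapln1 (-0.72 ± 0.19), Nid1 (-0.60 ± 0.18), Col8a1 (-0.77 ± 0.52) and Lum (-0.83 ± 0.71).

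The Head Fuz KO libraries differed from each other. The fibrillar collagens summed to 689 CPM in Fuz KO 1 and 1230 CPM in Fuz KO 2, against 1524 and 1381 CPM in WT. Col3a1 was at 279 and 572 CPM, Vcan at 181 and 349 CPM and Lum at 10.0 and 34.3 CPM in Fuz KO 1 and 2. All 44 members summed to 4094 CPM in Fuz KO 1 and 4762 CPM in Fuz KO 2. Of the 44, 27 were lower in Fuz KO 1 than in Fuz KO 2, where 50.1% of all genes tested were. Some were higher in Fuz KO 1, such as Col18a1 (400 against 292 CPM) and Fn1 (439 against 315 CPM). The hypoxia and glycolysis genes were at a median of 2.66 in Fuz KO 1. Without Fuz KO 2, so with the lower library alone, 11 members fell, where 9.85% of all genes were called, among them Nid1 (-1.10 ± 0.12), Hapln1 (-1.19 ± 0.16) and Vcan (-1.01 ± 0.15). Without the Fuz KO 1 and DKO 1 libraries of both regions, 2 fell, Tnc (-2.02 ± 0.23) and Lox (-2.31 ± 0.31), where 0.0446% of all genes were called. The 10 erythroid markers summed to 4182 and 5259 CPM in Head Fuz KO 1 and 2 against 9260 and 7384 CPM in WT, neuron markers to 464 and 866 CPM against 864 and 915 CPM, and the 10 mesenchyme markers to 518 and 672 CPM against 705 and 652 CPM. The part of the hypoxia genes and of these cells in the lower matrix levels was not tested.

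**Figure D3:**
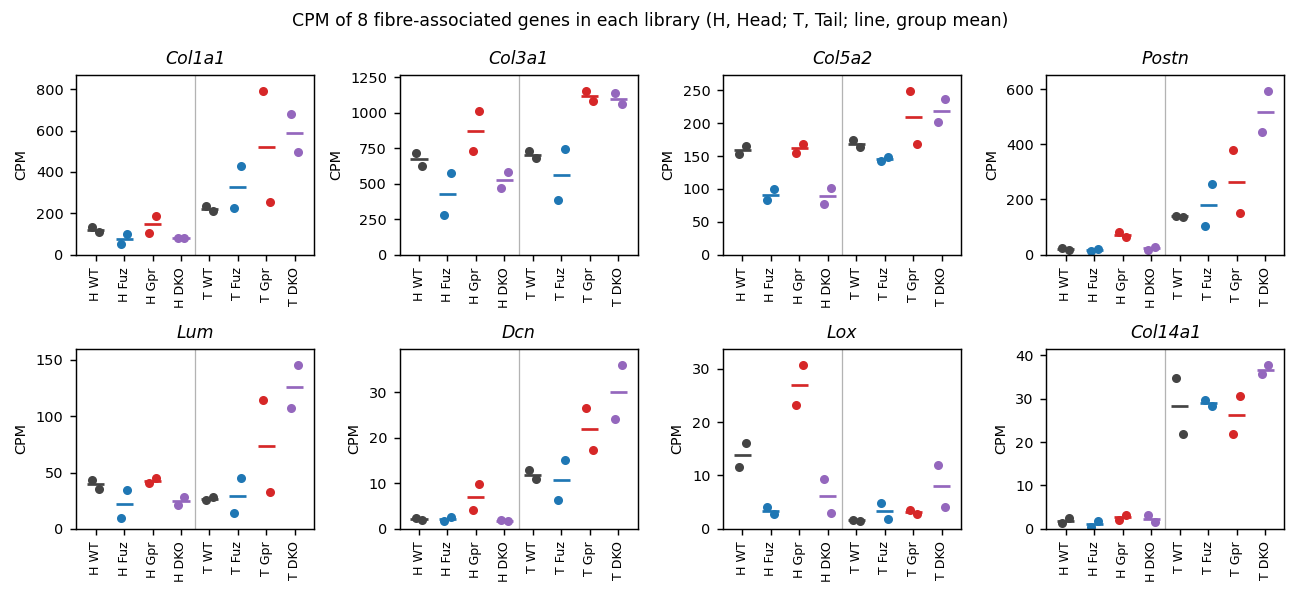
CPM of 8 matrix genes in each of the 16 libraries, Head groups to the left of the grey line and Tail groups to the right; points are libraries, horizontal lines group means, and every axis starts at 0. Col5a2 is lower in both Head Fuz KO and both Head DKO libraries than in Head WT, and Postn, Lum and Dcn are highest on average in Tail DKO.

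In the Fuz KO Tail the members were spread about 0. None was called by edgeR, where 0.0094% of all genes tested were, and DESeq2 called 0. By edgeR 1 member had an unadjusted p under 0.05, where 5.21% of all genes did. The median log2 change was -0.06 (-0.01 over all genes), with 13 members wholly below WT and 4 wholly above, where 18% and 16.6% of all genes were. Tnc was at 36.8 and 33.6 CPM in Tail WT and 11.9 and 21.3 CPM in Fuz KO (-1.09 ± 0.51). Col12a1 was at 10.7 and 12.7 CPM against 5.21 and 9.80 CPM (-0.64 ± 0.33), and Lox at 1.68 and 1.51 CPM against 4.85 and 1.93 CPM (1.09 ± 0.61). Lox thus pointed up in Tail and down in Head. The higher Tail value was that of Fuz KO 1, a library with raised hypoxia genes, and a link was not tested. The Tail minus Head difference of the Fuz effect for Lox was 3.10 ± 0.86, with an adjusted p of 1. With Head and Tail libraries paired within a genotype it was 2.99 ± 0.36 (adjusted p = 0.0409), the 1 member and the 1 gene called in that fit. Leaders of the other classes were Col1a1 (0.56 ± 0.53), Lamb1 (0.45 ± 0.25), Bgn (-0.22 ± 0.20) and Vcan (-0.28 ± 0.22).

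For that difference of the Fuz effect between regions, 0 members and 0% of all genes were called by edgeR, and DESeq2 called 0 members. By edgeR 4 members had an unadjusted p under 0.05, where 2.12% of all genes did. Without Head Fuz KO 2, 2 members passed, Nid1 (1.00 ± 0.14) and Hapln1 (1.30 ± 0.19), where 0.083% of all genes did. In the full fit Hapln1 differed by 0.82 ± 0.27 and Lamb1 by 0.55 ± 0.35. The other leading values were 1.24 ± 0.75 for Col1a1, 0.79 ± 0.79 for Col14a1, 0.66 ± 0.70 for Postn and 0.96 ± 1.00 for Lum.

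In the DKO Head the matrix genes were near or below WT. By edgeR 0 of 44 were called, where 0.0329% of all genes tested were, and DESeq2 called 1, Col5a2. At an unadjusted edgeR p under 0.05 there were 3 members, where 4.33% of all genes had such a p. The median log2 change was -0.23 (0.00 over all genes). Both DKO libraries lay below WT for 24 members and above for 0, where 19.1% and 21.3% of all genes did so. Col5a2 was at 153 and 165 CPM in WT and 76.9 and 102 CPM in DKO (-0.83 ± 0.18, adjusted p = 0.32), close to its 83.2 and 99.5 CPM in Fuz KO. Hapln1 was at 96.4 and 92.0 CPM in WT, 42.5 and 71.5 CPM in Fuz KO and 59.5 and 68.4 CPM in DKO (-0.56 ± 0.19 for DKO against WT). The basement membrane leader, Col4a1, was at -0.18 ± 0.14. Other class leaders were Col8a1 (-0.85 ± 0.52), Lox (-1.18 ± 0.58), Lum (-0.66 ± 0.71) and Fn1 (0.28 ± 0.25), whose sign turned to -0.09 without DKO 1. Without the Fuz KO 1 and DKO 1 libraries, 2 members fell, Tnc (-1.60 ± 0.22) and Lox (-2.26 ± 0.31), where 0.0535% of all genes were called.

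In the DKO Tail no member passed the test, and the highest changes were those of Lox, Lum and Postn. By edgeR 0 of 44 were called, where 0.0423% of all genes tested were, and DESeq2 called 2, Postn and Lox. At an unadjusted edgeR p under 0.05 there were 10 members, where 7.19% of all genes had such a p. The median log2 change was 0.16 (0.01 over all genes). Both DKO libraries lay above WT for 19 members and below for 5, where 21.4% and 20.8% of all genes did so. Postn was at 142 and 138 CPM in Tail WT, 103 and 257 CPM in Fuz KO, 379 and 151 CPM in Gpr161 KO and 444 and 595 CPM in DKO. Both DKO libraries were above the other 6 Tail libraries, and the change against WT was 1.90 ± 0.51 (adjusted p = 0.386). Lum was at 26.0 and 27.8 CPM in WT and 107 and 145 CPM in DKO (2.23 ± 0.73), with Gpr161 KO 1 between them at 115 CPM. Its neighbour Dcn was at 12.9 and 11.0 CPM in WT and 24 and 35.9 CPM in DKO.

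Lox, which acts on the same fibres, was at 1.68 and 1.51 CPM in Tail WT and 12.0 and 4.11 CPM in Tail DKO (2.33 ± 0.62, adjusted p = 0.367). The higher value was that of DKO 1, a library with raised hypoxia genes, and a link was not tested. Col1a1, the main chain of collagen I, was at 234 and 209 CPM in Tail WT against 679 and 497 CPM in Tail DKO (1.41 ± 0.53). Col1a2 was at 232 and 216 CPM against 440 and 373 CPM. Has2 was at 0.77 ± 0.25, Col9a3 at 0.65 ± 0.31 and Col4a2 at -0.27 ± 0.14, each leading its class. Without the Fuz KO 1 and DKO 1 libraries, 1 member passed, Col4a1, which fell (-0.52 ± 0.08), where 1.05% of all genes were called. Of the 8 elastic fibre members 6 were negative, with a class median of -0.06, and the 6 fibrillar collagens were all positive, with a median of 0.51. The mesenchyme markers summed to 897 and 822 CPM in Tail DKO and to 1000 and 879 CPM in Tail WT. The part of these cells in the matrix levels was not tested.

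Tail minus Head, the DKO effect was positive for 34 of 44 members, and 0 members and 0% of all genes were called by edgeR. At an unadjusted edgeR p under 0.05 there were 10 members, where 3.25% of all genes had such a p. DESeq2 called 2, Col5a2 and Lox. Lox differed by 3.51 ± 0.85 and Lum by 2.89 ± 1.02, both with an adjusted p of 1. Col1a1 (2.00 ± 0.75), Postn (1.78 ± 0.71), Has2 (1.00 ± 0.36), Col6a3 (1.27 ± 1.13) and Hspg2 (-0.22 ± 0.24) led the other classes. Without the Fuz KO 1 and DKO 1 libraries, Lox passed (3.62 ± 0.42), where 0.00892% of all genes did. With Head and Tail libraries paired within a genotype Lox was again the 1 member called (3.52 ± 0.35, adjusted p = 0.00471), where 0.0893% of all genes were.

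**Figure D4:**
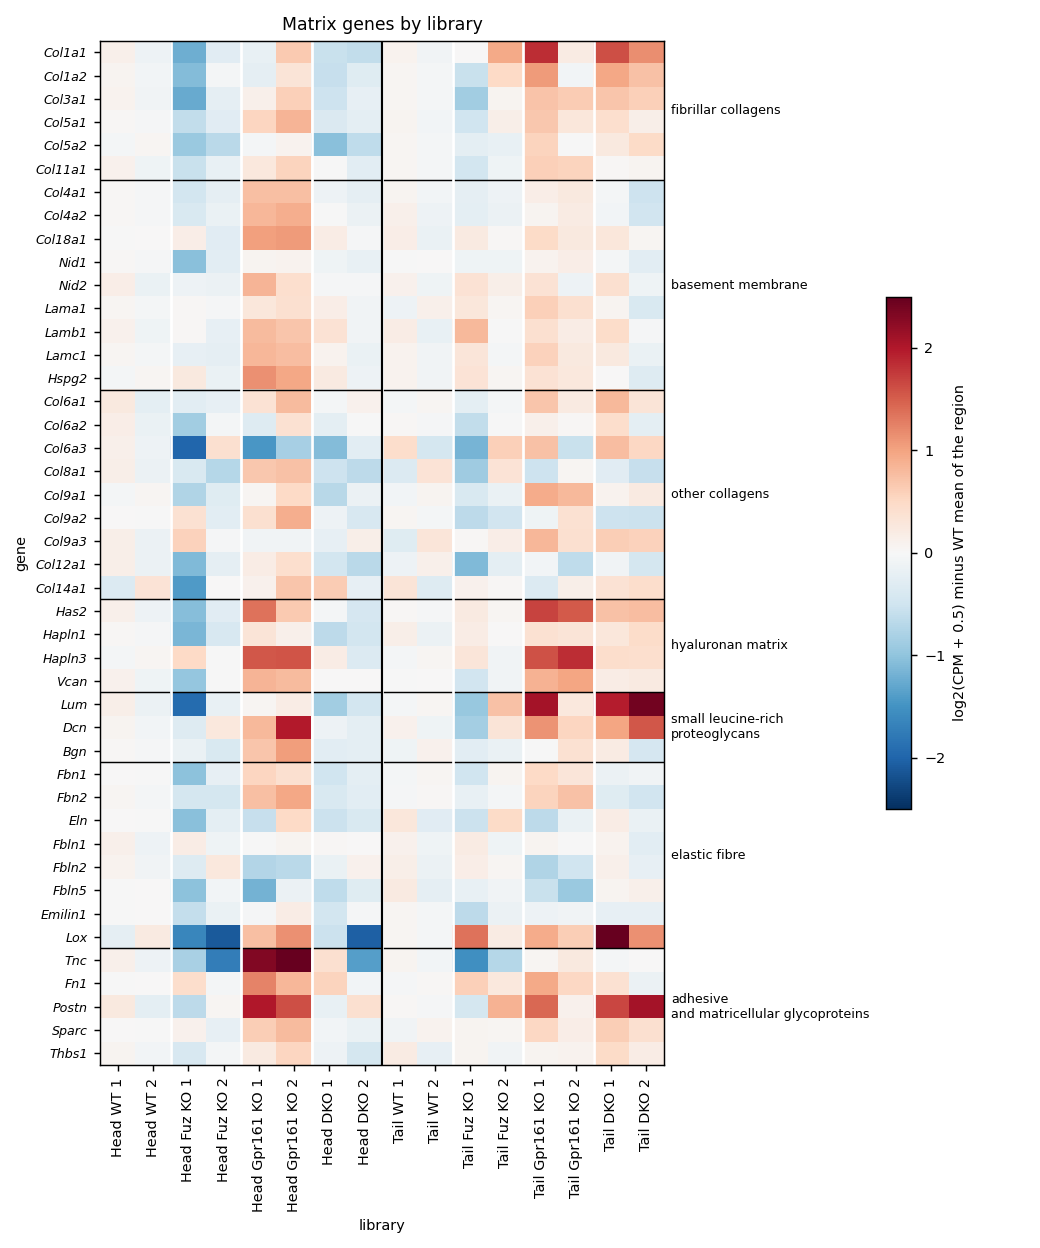
The 44 members (rows, by class) in the 16 libraries (columns), coloured by log2(CPM + 0.5) minus the mean of the 2 WT libraries of the same region; red is above and blue below WT, and colours saturate at a difference of 2.5 either way. The Head Gpr161 KO columns are red through most of the basement membrane and hyaluronan rows, and the Head Fuz KO 1 column is blue through most rows.

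The DKO was also compared with each single mutant. These comparisons share libraries with those against WT, so values are given side by side and no agreement is drawn from them. In the Head, 15 of 44 members were lower in DKO than in Gpr161 KO and 0 were higher, where 3.13% of all genes tested were lower. The median log2 difference was -0.80 (0.01 over all genes), and the DKO libraries lay wholly below for 35 members, where 25.8% of all genes did so. Fbn2, at 204 and 221 CPM in DKO and 447 and 524 CPM in Gpr161 KO, had the smallest adjusted p (-1.19 ± 0.12, adjusted p = 0.000133). Col4a2 (-0.95 ± 0.14), Col4a1 (-0.93 ± 0.14), Col18a1 (-0.96 ± 0.16) and Hspg2 (-0.99 ± 0.17) fell together, and none of these 4 was called in DKO against WT, where they were at -0.08, -0.18, 0.08 and 0.06.

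Hapln3 fell by 1.77 on the log2 scale and Sparc by 0.82 in Head DKO against Head Gpr161 KO. Tnc was at 8.88 and 2.22 CPM in DKO and 34.8 and 45.9 CPM in Gpr161 KO (-2.86 ± 0.54). Dcn fell by 1.95 and Col5a1 by 1.00, leading the small proteoglycans and the fibrillar collagens. Col8a1 (-1.71 ± 0.52) and Lox (-2.14 ± 0.60) led their classes without passing. The other members that fell, named after their values were seen, were Bgn, Lamc1, Has2, Col5a2 and Hapln1. Among them Col5a2 differed in its pattern, since Gpr161 KO was at 154 and 169 CPM, level with the 153 and 165 CPM of WT. Of the 15 calls, leaving out a library gave 10 without Gpr161 KO 1, 7 without Gpr161 KO 2, 8 without DKO 1 and 6 without DKO 2, where 1.42%, 1.41%, 0.916% and 1.18% of all genes were called. Tnc and Dcn were not called with each region fitted alone, nor Dcn with a sex term. Fbn2, Col4a2, Col4a1 and Hapln3 were called in each of these fits and in all other alternatives. The cardiomyocyte markers summed to 45.4 and 12.3 CPM in Head DKO against 2790 and 589 CPM in Head Gpr161 KO, the endothelial markers to 450 and 460 CPM against 776 and 670 CPM, and the chondrogenic and sclerotome markers to 642 and 571 CPM against 1024 and 1165 CPM. The mesenchyme markers had a higher sum in Head DKO, at 608 and 684 CPM against 541 and 606 CPM in Head Gpr161 KO. Their median log2 difference from Head WT was -0.21 and -0.13 in Head DKO and -0.24 and 0.20 in Head Gpr161 KO. The neural progenitor markers also had a higher sum in Head DKO, at 1357 and 1296 CPM against 955 and 1153 CPM. The part of all these cells in the lower matrix levels of DKO was not tested.

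In the Tail, 2 of 44 members were lower in DKO than in Gpr161 KO and 0 were higher, where 0.371% of all genes tested were lower. Fbn2 was at 296 and 261 CPM in DKO against 538 and 607 CPM in Gpr161 KO (-1.04 ± 0.12, adjusted p = 0.00133). Hapln3 fell by 1.35 (adjusted p = 0.0424), from 15.9 and 19.0 CPM to 6.86 and 6.79 CPM. Each library left out in turn gave 1 call, which was Fbn2. Hapln3 was also not called with each region fitted alone or with a sex term. The median log2 difference was -0.08 (0.03 over all genes). Class leaders that did not pass were Lama1 (-0.63 ± 0.16), Col11a1 (-0.54 ± 0.16), Col9a2 (-0.73 ± 0.26), Postn (0.97 ± 0.49), Lox (1.39 ± 0.59) and Lum (0.78 ± 0.70), the last 3 in the direction opposite to Fbn2.

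Against Fuz KO, 0 members were called in the Head DKO, where 0.0282% of all genes tested were, and 0 in the Tail DKO, where 0.0329% were. By edgeR 1 and 10 members had an unadjusted p under 0.05, where 2.89% and 3.69% of all genes did. DESeq2 called 0 in both. In Head the leaders were Tnc (1.10 ± 0.54), Col14a1 (1.05 ± 0.59), Lox (0.83 ± 0.59), Nid1 (0.46 ± 0.18), Vcan (0.42 ± 0.22), Col3a1 (0.30 ± 0.33) and Dcn (-0.24 ± 0.47). Without Head Fuz KO 2, 2 members passed, Nid1 (0.93 ± 0.11) and Vcan (1.00 ± 0.15), where 1.84% of all genes did. In Tail they were Lum (2.10 ± 0.73), Postn (1.53 ± 0.50), Lox (1.25 ± 0.59), Col3a1 (0.96 ± 0.33), Col6a1 (0.76 ± 0.24), Has2 (0.62 ± 0.25) and Hspg2 (-0.36 ± 0.17). Col3a1, which forms fibrils with collagen I in soft tissue, was at 386 and 741 CPM in Tail Fuz KO and 1141 and 1057 CPM in Tail DKO.

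The members with few calls are given by their range over the 16 libraries. Fbln1, a fibulin, ran from 130 to 181 CPM, and its log2 change lay between -0.08 and 0.06 in the 6 comparisons with WT. Emilin1, an elastic fibre glycoprotein, ran from 69.4 to 141 CPM and Fbn1, the fibrillin of later microfibrils, from 36.5 to 108 CPM, with the lowest value of both in Head Fuz KO 1. Fbln5, which helps assemble elastin, ran from 2.94 to 13.0 CPM and was below WT in both Gpr161 KO groups without passing (-0.60 ± 0.37 in Head and -0.83 ± 0.37 in Tail). The 3 chains of collagen IX, which decorates cartilage fibrils, ran from 44.4 to 141 CPM for Col9a1, 4.38 to 31.6 CPM for Col9a2 and 2.11 to 9.14 CPM for Col9a3. Col11a1 ran from 39.2 to 134 CPM, Thbs1 from 37.6 to 117 CPM, Fn1 from 311 to 1033 CPM and Col8a1, a short-chain collagen, from 0.722 to 2.93 CPM, each with its highest value in a Gpr161 KO library. Col6a2 ran from 6.94 to 27.6 CPM and Col6a1 from 9.28 to 27.9 CPM, both higher on average in Head WT than in Tail WT.

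**Figure D5:**
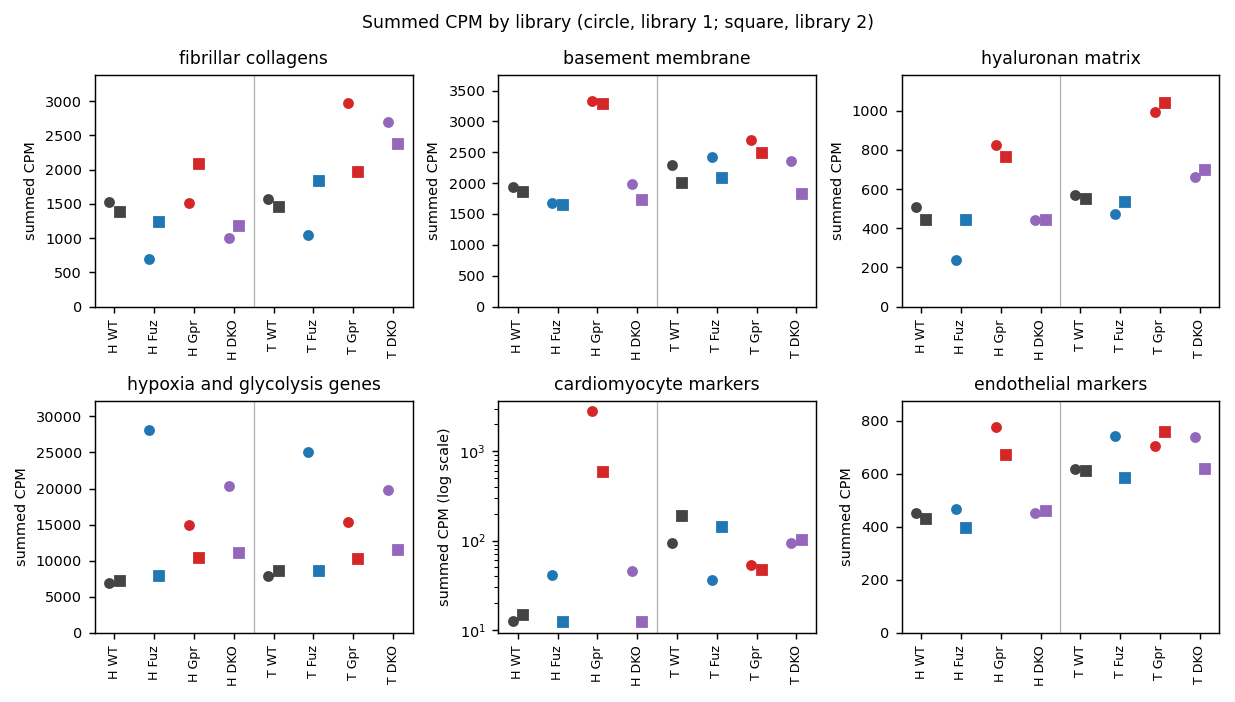
Summed CPM of 3 matrix classes (top row) and of 3 marker lists (bottom row) in each of the 16 libraries, circles for library 1 and squares for library 2 of a group; the cardiomyocyte axis is logarithmic and the other axes start at 0. The basement membrane sum is highest in the 2 Head Gpr161 KO libraries at 3334 and 3287 CPM, and the hypoxia sum is highest in Head Fuz KO 1.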

How the data were processed

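RNA of 16 libraries (8 groups of 2) was analysed. The deposited values are raw read counts per Ensembl gene, not normalized by the authors. Per the submitters' processing notes, the tools were HTSeq, featureCounts 1.6.0, STAR 2.7.1a, StringTie 2.0.4, Trimmomatic, Picard 2.20.4 and FastQC, with the genome build GRCm39. Which tool did the counting, in what order they ran and with what strand setting is not given in the sources used here. Symbols and exon lengths come from an annotation of another build (GENCODE), so no gene coordinates are given.

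Counts were filtered with edgeR's filterByExpr, leaving 21284 genes, scaled by TMM and fitted in 1 quasi-likelihood model with 8 group coefficients and 8 residual degrees of freedom (edgeR 4.0.16, limma 3.58.1, R 4.3.3). Within a comparison, p-values were adjusted by Benjamini-Hochberg across the genes tested. Called, rose and fell mean an adjusted p under 0.05. SE is the absolute log2 change divided by the square root of F. CPM uses TMM-scaled totals, and log2 differences of single libraries from WT use a pseudocount of 0.5 CPM. The depth of 39062489 to 53680317 counts limits low genes most. The scripts were tested on simulated data. Replicates differed by more than sampling noise in all 8 groups, and unequally. Chi-square per degree of freedom between the 2 libraries ran from 10.2 in Head WT to 182 in Head Fuz KO. It was 105 in Tail Fuz KO, 31.4 in Head Gpr161 KO and 23 in Tail Gpr161 KO. The shared spread of the fit does not follow these differences between groups. Same-numbered Head and Tail libraries of a genotype deviated together (r = 0.24 for WT, 0.59 for Fuz KO, 0.34 for Gpr161 KO and 0.51 for DKO, across genes), a pairing that comes from the numbers and these values, since no label states it. Some same-numbered libraries of different genotypes did so too, with r = 0.45 for Head Fuz KO and Head DKO.

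There were 14 comparisons. Alternatives were DESeq2 1.42.0, RLE scaling, no filter, a filter of 5 CPM in 2 libraries, each region alone, a replicate block, a sex term, a replicate block within genotype (Head and Tail libraries of a genotype and number as pairs, added after seeing the data for comparisons between regions), removal of the Fuz KO 1 and DKO 1 libraries, and leaving out each library, in which the remaining single library is taken to have the spread of the rest. The text names each called member (7 per direction where over 14 were called) and the member with the largest change in each class, and of each partner list up to 4 called genes or, where none passed, the one with the largest change. One result under this rule is not reported here. The members and lists were chosen with earlier results of these data known.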

Additional observations from a re-analysis of the deposited data

How the results depend on the processing

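The counts of called members that differed by over 1.5 times from those reported were the following. With DESeq2 the counts were 1 (Head Fuz KO), 16 (Head Gpr161 KO), 1 (Head DKO), 5 (Tail Gpr161 KO) and 2 (Tail DKO) against WT, 27 and 5 for DKO against Gpr161 KO in Head and Tail, and 1 and 2 for the regional differences of the Gpr161 and DKO effects. Of all genes to which DESeq2 gave an adjusted p, it called 0.255%, 5.19%, 0.31%, 1.66%, 0.839%, 9.81%, 4.29%, 1.18% and 0.0517%, in the same order. With no filter on low counts they were 12, 20 and 5 in Head and 2, 13 and 9 in Tail for Fuz KO, Gpr161 KO and DKO against WT. There 1.85%, 3.12% and 1.02% of all genes were called in Head and 1.23%, 1.9% and 1.14% in Tail. The same setting gave 1 and 9 for DKO against Fuz KO in Head and Tail, 33 and 11 for DKO against Gpr161 KO, 21 for Head against Tail WT, and 3, 6 and 10 for the regional differences. The shares of all genes called there were, in that order, 0.201%, 0.357%, 4.21%, 1.88%, 4%, 0.166%, 1.04% and 0.341%. Without the Fuz KO 1 and DKO 1 libraries they were 19 for Head Gpr161 KO and 9 for Tail Gpr161 KO against WT. For Head against Tail WT the count was 19, and for the regional difference of the Gpr161 effect 4. In the same order, this setting called 9.86%, 1.55%, 7.56% and 0.634% of all genes. Its counts for comparisons with Fuz KO or DKO, left with 1 library a group, are not listed here. The sex term gave 6 for Head Gpr161 KO against WT and 1 for Tail DKO against Gpr161 KO. It called 0.921% and 0.221% of all genes in these comparisons. Leaving out 1 library gave 0 to 11 for Head Fuz KO, 0 to 5 for Head Gpr161 KO, 0 for Tail Gpr161 KO, 0 to 2 for Head DKO against Fuz KO, 6 to 10 for Head and 1 for Tail DKO against Gpr161 KO, 0 to 3 for Head against Tail WT and 0 to 2 for the Fuz effect between regions. The cause of these shifts was not tested, except that fits without a library have fewer samples.

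No member that was called reversed its sign in any alternative. Uncalled members did: with the sex term, Fn1 in Head DKO against WT was -0.14 and Bgn in Tail Fuz KO was 0.16, and without the Fuz KO 1 and DKO 1 libraries Fn1 was -0.0916 and Col14a1 in Head DKO against Fuz KO was -0.31. Leaving out 1 library gave -0.0859 to 0.55 for Fn1 in Head DKO and -0.0151 to 0.81 for Lamb1 in Tail Fuz KO. In Head DKO against Fuz KO it gave -0.14 to 0.93 for Col3a1, -0.57 to 0.19 for Dcn, -0.22 to 1.79 for Tnc and -0.22 to 1.45 for Lox. For the regional difference of the Fuz effect it gave -0.14 to 1.17 for Postn and -0.13 to 2.17 for Lum, and for that of the Gpr161 effect -0.97 to 0.20 for Eln and -0.0614 to 1.58 for Col1a1.

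With a replicate block the counts were 25 for Head DKO against Gpr161 KO, 14 for Head Gpr161 KO against WT, 4 for Tail Gpr161 KO and 15 for Head against Tail WT. The block called 5.92%, 3.1%, 0.573% and 4.92% of all genes in these comparisons. Same-numbered libraries of 28 pairs of groups had correlated deviations from r = -0.11 to 0.59, over 0.1 in 15, among them all 4 pairs of Head and Tail within a genotype. Some pairs across genotypes were as high, with r = 0.45 for Head Fuz KO and Head DKO, so these values do not single out a pairing within genotype. Over the 44 members, r between Head and Tail was -0.30 for WT, 0.58 for Fuz KO, -0.04 for Gpr161 KO and 0.36 for DKO. Taking the numbers to pair regions within a genotype, but not genotypes, was thus an assumption. Pairing the regions with a replicate block within genotype, chosen after seeing the data, gave 20 for Head against Tail WT and 1, 3 and 1 for the regional differences of the Fuz, Gpr161 and DKO effects. Each region alone was not run for comparisons across regions. With 2 libraries a group, genes of low counts such as Col8a1 and Col14a1 in Head are the least precise.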

Other observations

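Between the WT regions, 26 of the 181 tested genes that process, bind or cut the matrix, or belong to it beyond the 44 members, differed, where 3.77% of all genes tested did. The genes below were chosen after their values were seen. Adam12, a membrane metalloprotease of mesenchyme, measured 9.26 and 8.61 CPM in Head WT and 32.0 and 34.7 CPM in Tail WT (log2 -1.90 ± 0.14, adjusted p = 3.68e-06, edgeR). Of the 7 matrix proteases and inhibitors that differed, all 7 were lower in Head, among them Adamts1 (-1.10 ± 0.17) and Adamts12 (-1.10 ± 0.17). Itga11, a collagen-binding integrin chain, measured 7.54 and 5.98 CPM in Head WT and 0.790 and 0.457 CPM in Tail WT (3.43 ± 0.58). Col2a1, the fibrillar collagen of cartilage, measured 463 and 468 CPM in Head WT and 191 and 216 CPM in Tail WT (1.19 ± 0.19).

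In Head DKO against Head Gpr161 KO, 38 of the same genes differed, 37 lower in DKO and 1, Smoc1, higher, where 4.16% of all genes tested differed. Adamts12 was at 7.26 and 10.6 CPM in DKO and 48.9 and 49.2 CPM in Gpr161 KO (-2.46 ± 0.18), and Spon1, the F-spondin gene, at 38.8 and 25.7 CPM against 342 and 483 CPM (-3.68 ± 0.49). In Tail DKO against Tail Gpr161 KO, 3 differed, all lower: Matn4, a matrilin (-3.91 ± 0.57), Col2a1 (-1.01 ± 0.19) and Timp4, a protease inhibitor (-3.53 ± 0.69). P4ha1, a prolyl 4-hydroxylase subunit, was at 417 and 76.3 CPM in Head Fuz KO 1 and 2, and at 501 and 112 CPM in Tail Fuz KO 1 and 2, against 67.3 to 93.1 CPM in the 4 WT libraries.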
